A study of Mus musculus with 24 samples.

Results

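Transcripts of 10 genes of the tumour matrix and of the TGF-beta axis were followed across 24 subcutaneous CT26 tumours. The genes were listed by symbol, with no threshold on a measured value: the matrix genes Col1a1, Col3a1, Col4a1 and Fn1, the mesenchymal and T cell surface gene Thy1, the ligands Tgfb1, Tgfb2 and Tgfb3, and the receptors Tgfbr1 and Tgfbr2. All 10 were among the 750 genes of the deposited table, and all 10 were among the 600 genes that passed the filter on low values and were tested. CT26 is a colon carcinoma line of BALB/c mice; before implantation into mice of that strain, the cells had spent 40 weeks in culture with 0.5 uM NP1867, an inhibitor of the mismatch repair protein PMS2, or with its solvent DMSO. From day 7, at a mean volume of about 50 mm3, the mice received 4 intraperitoneal doses of 5 mg/kg of anti-PD-1 (clone RMP1-14) or of a rat isotype control antibody of the same class, and tumours were collected on day 19, 24 hours after the last dose. The 4 groups of 6 tumours are NP1867 anti-PD-1, NP1867 isotype, DMSO anti-PD-1 and DMSO isotype, and a tumour is named here by the number in its label. All groups were 40-week cultures grown in mice with intact immune systems, and the animals were picked because their tumour lay near the mean volume of the group. The labels do not say whether the cultures were clones or pools, so a difference between NP1867 and DMSO tumours cannot be told apart from a difference between 2 long-term cultures.

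Type I and type III collagen, of which Col1a1 and Col3a1 encode chains, form the fibrils of connective tissue and are made chiefly by fibroblasts, whereas type IV collagen (Col4a1) lies in basement membranes. TGF-beta ligands are secreted in a latent form and, once released, bind the type II receptor (Tgfbr2), which activates the type I receptor (Tgfbr1). That receptor phosphorylates Smad2 and Smad3, which act with Smad4 on target genes that include collagens and fibronectin, and in T cells the same pathway restrains proliferation and effector functions.

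RNA of fixed sections was counted with NanoString nCounter probes, and values are given on the deposited log2 scale. Recovered counts summed to between 62699 and 687032 per tumour, and the 4 tumours under 200000 counts were all DMSO tumours (anti-PD-1 11 and 37, isotype 6 and 23). Of the carcinoma cell markers, 4 of 7 were in the table. Their summed log2 level ran over 6.38 to 7.83 in NP1867 anti-PD-1, 6.28 to 6.91 in NP1867 isotype, 6.11 to 7.62 in DMSO anti-PD-1 and 5.81 to 7.97 in DMSO isotype tumours. Epcam, an epithelial adhesion molecule, had only 3 to 49 counts. Of the fibroblast and pericyte markers, 4 of 11 were in the table (Pdgfrb, Fap, Cspg4 and Mcam), and none was at 0. In whole-tumour RNA, fewer cells of a type and less RNA per cell cannot be told apart.

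The promoters of 3 of the genes are printed because their transcripts took different courses: Col3a1 and Tgfbr2 varied together from tumour to tumour, and Tgfb1 was the steadiest of all tested genes relative to its tumour's median. Each sequence is the 250 bases before the annotated start in RefSeq (mouse build GRCm38.p6), 5′ to 3′ on the gene's strand. RefSeq windows were matched for 6 of the 10 genes. Capitals mark matches on either strand to the TATA box TATAAA, to CCAAT, bound by the factor NF-Y, to the GC box GGGCGG, bound by Sp1, and to CAGAC, the core of Smad binding elements. The marked matches do not overlap.
Col3a1 (chr1:45311288-45311537, plus strand): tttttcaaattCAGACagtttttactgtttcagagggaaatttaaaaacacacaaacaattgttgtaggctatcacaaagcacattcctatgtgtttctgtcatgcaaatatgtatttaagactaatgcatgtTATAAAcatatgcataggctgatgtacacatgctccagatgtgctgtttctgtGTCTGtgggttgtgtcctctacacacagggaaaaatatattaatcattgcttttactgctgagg
Tgfbr2 (chr9:116175364-116175613, minus strand): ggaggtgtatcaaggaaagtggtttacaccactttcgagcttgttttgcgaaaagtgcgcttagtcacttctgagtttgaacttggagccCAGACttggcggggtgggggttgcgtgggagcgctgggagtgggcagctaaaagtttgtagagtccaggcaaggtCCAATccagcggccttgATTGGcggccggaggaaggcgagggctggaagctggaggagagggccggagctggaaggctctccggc
Tgfb1 (chr7:25686752-25687001, plus strand): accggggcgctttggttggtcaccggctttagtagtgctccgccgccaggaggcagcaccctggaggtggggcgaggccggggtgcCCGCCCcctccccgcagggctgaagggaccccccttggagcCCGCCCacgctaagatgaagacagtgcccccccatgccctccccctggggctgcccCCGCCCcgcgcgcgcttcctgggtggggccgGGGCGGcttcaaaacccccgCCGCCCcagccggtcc

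The Col3a1 window has 35.2% G and C, below the median of 52.4% over 32851 RefSeq windows of this length, and holds 1 TATA box, 117 bases before the start, and 2 Smad cores. The Tgfbr2 window (58.4% G and C) holds 2 NF-Y matches and 1 Smad core, and the Tgfb1 window (75.2% G and C) holds 5 GC boxes and none of the other motifs. Among all windows the TATA box occurs in 12.4%, the NF-Y match in 33.8%, the GC box in 32.7% and the Smad core in 42.2%, so a Smad core is common and a match says nothing of binding.

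The fibrillar collagens were the most variable of the 10 genes. Col1a1 ranged over 11.28 to 14.70 (median 12.21) in NP1867 anti-PD-1 tumours, 9.76 to 13.93 (median 11.58) in NP1867 isotype, 10.38 to 13.07 (median 12.15) in DMSO anti-PD-1 and 9.24 to 12.39 (median 10.33) in DMSO isotype tumours. Col3a1 ranged over 12.35 to 15.29 (median 12.89) in NP1867 anti-PD-1, 10.83 to 15.00 (median 12.50) in NP1867 isotype, 10.61 to 13.98 (median 12.74) in DMSO anti-PD-1 and 9.79 to 13.14 (median 10.82) in DMSO isotype tumours. NP1867 anti-PD-1 tumour 78 and NP1867 isotype tumour 47 were the highest for both collagens, and the DMSO isotype tumours other than 6 and 23 lay at or below 10.84 for both. All groups overlapped.

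**Figure D1:**
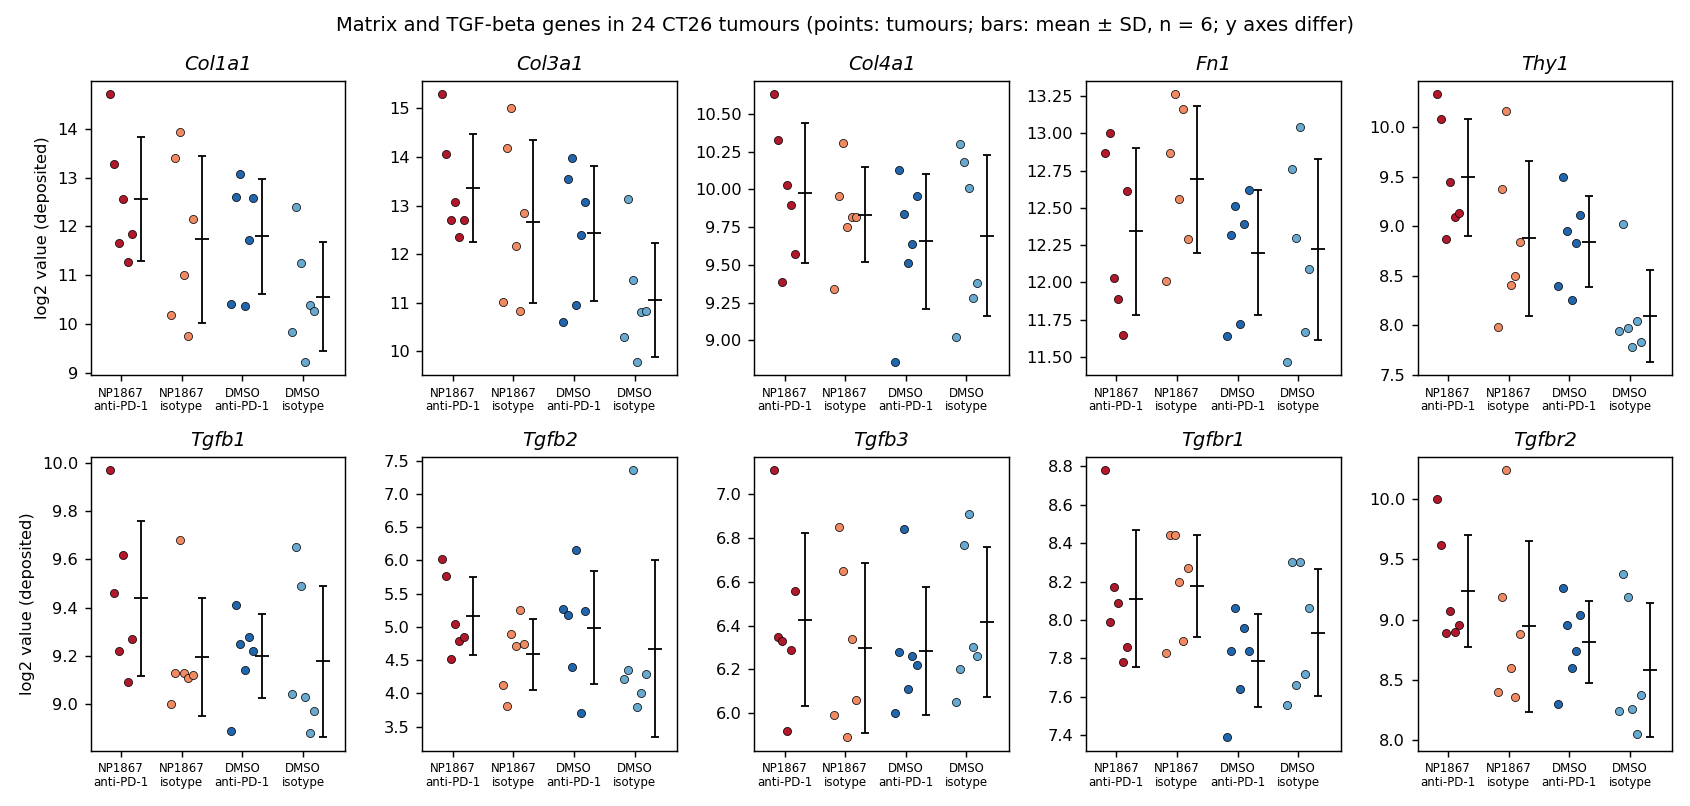
Deposited log2 values (y axis, scaled for each gene) of the 10 genes in the 4 groups (x axis); each point is 1 of 24 tumours and the bars give the mean ± SD (n = 6 per group). The groups overlap for every gene, and the 2 fibrillar collagens spread most, with Col1a1 between 9.24 and 14.70.

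Under anti-PD-1 the fitted collagen differences were positive in both cultures and smaller than the spread between tumours allowed limma to call. In NP1867 tumours Col1a1 averaged 12.55 ± 1.27 with anti-PD-1 and 11.74 ± 1.71 with isotype (SD, n = 6 each; log2 fold change 0.81, SE 0.70, adjusted p = 0.379), and 4 of 6 treated tumours lay above the isotype mean. In DMSO tumours it averaged 11.80 ± 1.17 with anti-PD-1 and 10.57 ± 1.11 with isotype (log2 fold change 1.23, SE 0.70, adjusted p = 0.390), again 4 of 6. Col3a1 gave 0.69 (SE 0.72, adjusted p = 0.471) in NP1867 tumours and 1.37 (SE 0.72, adjusted p = 0.363) in DMSO tumours. The NP1867 values depended on single tumours, at 0.38 for Col1a1 and 0.31 for Col3a1 without anti-PD-1 tumour 78 and 1.25 and 1.16 without isotype tumour 47. They were 0.34 and 0.24 after quantile normalisation and turned negative, at -0.41 and -0.52, with the pan-leukocyte gene Ptprc as a covariate, none of them called. In DMSO tumours they were 0.52 and 0.67 with that covariate, not called, and 1.80 (adjusted p = 0.00517) and 1.94 (adjusted p = 0.00398) with array weights. Between the cultures, under isotype, Col3a1 averaged 12.67 ± 1.68 in NP1867 and 11.06 ± 1.16 in DMSO tumours. That is the largest difference among the 10 genes in the 4 simple comparisons, with a log2 fold change of 1.61 (SE 0.72, 95% interval 0.14 to 3.09, limma adjusted p = 0.587), and 4 of 6 NP1867 tumours lay above the DMSO mean. Under anti-PD-1 the NP1867 and DMSO tumours differed by 0.94 for Col3a1 (adjusted p = 0.510) and by 0.76 for Col1a1 (adjusted p = 0.563). With intervals this wide, a fitted difference in collagen mRNA as large as 3.06-fold (Col3a1 between the cultures under isotype) was not called with 6 tumours a group. The size of difference that could be detected was not computed.

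Col4a1 and Fn1 stayed within narrower ranges. Col4a1 averaged 9.98 ± 0.46 in NP1867 anti-PD-1, 9.83 ± 0.31 in NP1867 isotype, 9.66 ± 0.45 in DMSO anti-PD-1 and 9.70 ± 0.53 in DMSO isotype tumours. Its fitted response to anti-PD-1 was 0.14 in NP1867 tumours (adjusted p = 0.670) and -0.04 in DMSO tumours (adjusted p = 0.934). Fn1, which encodes the cell-adhesive matrix protein fibronectin, was the only matrix gene with a negative fitted response in both cultures. It averaged 12.34 ± 0.56 in NP1867 anti-PD-1, 12.69 ± 0.49 in NP1867 isotype, 12.20 ± 0.42 in DMSO anti-PD-1 and 12.22 ± 0.61 in DMSO isotype tumours, so the fitted values were -0.35 (SE 0.29, adjusted p = 0.355) in NP1867 tumours, with 4 of 6 treated tumours below the isotype mean, and -0.03 (adjusted p = 0.964) in DMSO tumours. Neither passed the threshold on this scale. In NP1867 tumours limma called Fn1 lower after quantile normalisation (-0.89, adjusted p = 0.0176) and with limma-voom (-0.75, adjusted p = 0.0309). In these settings 55 and 92 of the 600 tested genes were called, 32 and 58 of them lower. With each tumour centred on its median, limma did not call Fn1 (-0.69, adjusted p = 0.0697).

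Thy1 was the one gene of the 10 that passed the threshold in any comparison on the deposited scale. It encodes a GPI-anchored glycoprotein that in mice is carried by T cells and by fibroblasts and other mesenchymal cells. It ranged over 8.87 to 10.33 (median 9.29) in NP1867 anti-PD-1, 7.98 to 10.16 (median 8.67) in NP1867 isotype, 8.26 to 9.50 (median 8.89) in DMSO anti-PD-1 and 7.78 to 9.02 (median 7.95) in DMSO isotype tumours. Of the DMSO isotype tumours, 5 lay at or below 8.04, under all 6 DMSO anti-PD-1 tumours, and only tumour 6 reached into their range. The difference was 0.61 in NP1867 tumours (SE 0.32, adjusted p = 0.159, 5 of 6 above the isotype mean) and 0.75 in DMSO tumours (SE 0.32, adjusted p = 0.316, 6 of 6).

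Averaged over both cultures, Thy1 rose with anti-PD-1. The 12 anti-PD-1 tumours ran from 8.26 to 10.33 (median 9.10) and the 12 isotype tumours from 7.78 to 10.16 (median 8.22), with a log2 fold change of 0.68, or 1.60-fold (SE 0.23, 95% interval 0.21 to 1.14, limma adjusted p = 0.0302). It was 1 of 10 genes called, where limma called 29.3% of the tested genes, so the share among these genes is below that of the table. The call was lost with each tumour centred on its median (0.38, adjusted p = 0.0626), with Ptprc as a covariate (0.30, adjusted p = 0.225), and on leaving out any of 7 tumours, by a small margin. Those were NP1867 anti-PD-1 78 (0.60, adjusted p = 0.0591) and 30 (0.62, 0.0559), NP1867 isotype 10 (0.59, 0.0537), 49 (0.63, 0.0519) and 57 (0.64, 0.0522), DMSO anti-PD-1 7 (0.61, 0.0593) and DMSO isotype 55 (0.65, 0.0535). It was 0.37 (adjusted p = 0.0444) with limma-voom. In NP1867 tumours alone, Thy1 was called without isotype tumour 47 (0.87, adjusted p = 0.0289).

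Of the T cell markers, all 10 were in the table and none was at 0 in any tumour; of the 7 tested, 6 rose in the averaged comparison, where 29.3% of all tested genes were called, and 4 in NP1867 tumours, where 12.3% were (median log2 fold changes 0.84 and 1.03 over the 7). Their summed log2 level ran over 9.14 to 10.08 in NP1867 anti-PD-1, 7.76 to 9.21 in NP1867 isotype, 8.96 to 9.57 in DMSO anti-PD-1 and 7.95 to 10.11 in DMSO isotype tumours. The summed fibroblast and pericyte markers ran over 8.14 to 9.77, 8.12 to 9.50, 8.16 to 8.93 and 8.03 to 8.96 in the same 4 groups, and 1 of the 4, Fap, rose in the averaged comparison. The summed macrophage markers, 9 of 10 in the table, ran over 11.96 to 13.26, 11.90 to 13.24, 11.71 to 12.79 and 11.92 to 13.04, and 1 of the 8 tested rose in that comparison. The summed endothelium markers, 9 of 11 in the table, ran over 11.62 to 11.93, 11.94 to 12.61, 11.52 to 11.95 and 10.82 to 12.58. Of these 9, 2 rose in the averaged comparison. Ptprc had an averaged log2 fold change of 0.43 and was not called.

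Across the 24 tumours, as deviations from the group means, Thy1 was set against the summed level of each of 7 marker lists, a choice made after its values were seen. It correlated with macrophage markers (r = 0.831, rho = 0.823, adjusted permutation p = 0.00014 and 7e-05, 0.721 without the 2 tumours farthest out) and with Ptprc (r = 0.780, rho = 0.813, adjusted permutation p = 0.000303 and 0.00014, 0.769 without the 2 farthest). With fibroblast and pericyte markers r was 0.737 (rho = 0.759, adjusted permutation p = 0.000303 and 0.00014, 0.655 without the 2 farthest), and with T cell markers 0.538 (rho = 0.614, adjusted permutation p = 0.0196 and 0.00501, 0.689 without the 2 farthest). With endothelium markers r was 0.402 (rho = 0.538, adjusted permutation p = 0.0661 and 0.0109, 0.462 without the 2 farthest), past the threshold by rho only. Carcinoma cell markers (r = 0.0690) and platelet markers (r = -0.0144) did not pass it. After centring none of the 7 relations passed the threshold, with r = 0.493 for macrophage, 0.437 for Ptprc, 0.394 for fibroblast and pericyte and -0.0352 for T cell markers (adjusted permutation p = 0.128, 0.177, 0.177 and 0.868). The differences between these r values were not tested. The part of these cell types in the rise of Thy1 was not tested.

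Thy1 was also higher in NP1867 than in DMSO tumours, although not past the threshold. Under isotype the difference was 0.78 (SE 0.32, adjusted p = 0.523, 5 of 6 above the DMSO mean), and under anti-PD-1 it was 0.65 (SE 0.32, adjusted p = 0.427, 6 of 6). Averaged over both antibodies it was 0.72 (SE 0.23, 95% interval 0.25 to 1.18, limma adjusted p = 0.106). Of the 7 tested T cell markers, 0 had a positive fitted difference between NP1867 and DMSO tumours under isotype (median -0.21) and 5 had one under anti-PD-1 (median 0.32), none called by limma.

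Of the ligands, Tgfb1, the form made widely by leukocytes and stromal cells, was the steadiest. It ranged over 9.09 to 9.97 (median 9.37) in NP1867 anti-PD-1, 9.0 to 9.68 (median 9.12) in NP1867 isotype, 8.89 to 9.41 (median 9.24) in DMSO anti-PD-1 and 8.88 to 9.65 (median 9.04) in DMSO isotype tumours. The lowest and highest of all 24 tumours were 2.12-fold apart, against 44.1-fold for Col1a1 and 45.3-fold for Col3a1. Its response to anti-PD-1 was 0.24 in NP1867 tumours (SE 0.16, 95% interval -0.09 to 0.58, adjusted p = 0.262, 5 of 6 above the isotype mean) and 0.02 in DMSO tumours (95% interval -0.32 to 0.36, adjusted p = 0.947). Both intervals end below a log2 fold change of 1, a doubling.

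Tgfb2 was near the limit of detection. It had 21 to 60 counts per tumour in NP1867 anti-PD-1, 9 to 45 in NP1867 isotype, 14 to 50 in DMSO anti-PD-1 and 5 to 30 in DMSO isotype tumours, with log2 medians of 4.95, 4.73, 5.21 and 4.26. The highest value, 7.36 in DMSO isotype tumour 23, rests on 30 counts in the shallowest tumour, where 3 counts correspond to 4.03. Fitted responses to anti-PD-1 were 0.57 (SE 0.48, adjusted p = 0.367) in NP1867 and 0.32 (SE 0.48, adjusted p = 0.707) in DMSO tumours. Averaged over both cultures, the value of 0.45 (adjusted p = 0.290) became 0.72 (adjusted p = 0.0206) without that tumour, but 0.15 after centring, 0.09 with limma-voom and -0.13 after quantile normalisation, none of these 3 called. Tgfb3, a ligand known for its part in palate closure and wound repair, averaged 6.43 ± 0.39 in NP1867 anti-PD-1, 6.30 ± 0.39 in NP1867 isotype, 6.28 ± 0.29 in DMSO anti-PD-1 and 6.42 ± 0.34 in DMSO isotype tumours. Its differences were 0.13 (adjusted p = 0.657) in NP1867 and -0.13 (adjusted p = 0.729) in DMSO tumours.

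On the deposited scale the fitted responses of the 2 receptors to anti-PD-1 had opposite signs, none of them called. With each tumour centred on its median both were negative, and again none was called. Tgfbr1 then had -0.41 in NP1867 and -0.39 in DMSO tumours, and Tgfbr2 -0.04 and -0.01. With anti-PD-1 the log2 ratio of Tgfbr2 to Tgfbr1 was higher by 0.37 in NP1867 and 0.38 in DMSO tumours (exact permutation test, adjusted p = 0.473 for each). Tgfbr1 ranged over 7.78 to 8.78 (median 8.04) in NP1867 anti-PD-1, 7.83 to 8.44 (median 8.23) in NP1867 isotype, 7.39 to 8.06 (median 7.84) in DMSO anti-PD-1 and 7.56 to 8.30 (median 7.89) in DMSO isotype tumours. Fitted responses to anti-PD-1 were -0.07 (SE 0.18, adjusted p = 0.776) in NP1867 tumours, where 5 of 6 treated tumours lay below the isotype mean and tumour 78 far above it, and -0.14 (SE 0.18, adjusted p = 0.649) in DMSO tumours. Tgfbr2 ranged over 8.89 to 10.00 (median 9.02) in NP1867 anti-PD-1, 8.36 to 10.24 (median 8.74) in NP1867 isotype, 8.30 to 9.26 (median 8.85) in DMSO anti-PD-1 and 8.05 to 9.38 (median 8.32) in DMSO isotype tumours. Its responses were 0.30 (SE 0.29, adjusted p = 0.447) and 0.23 (SE 0.29, adjusted p = 0.647) in NP1867 and DMSO tumours. Under anti-PD-1, all 6 NP1867 tumours lay above the DMSO mean of Tgfbr2 (0.42, SE 0.29, adjusted p = 0.484), and 5 of 6 did for Tgfbr1 (0.32, SE 0.18, adjusted p = 0.433).

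**Figure D2:**
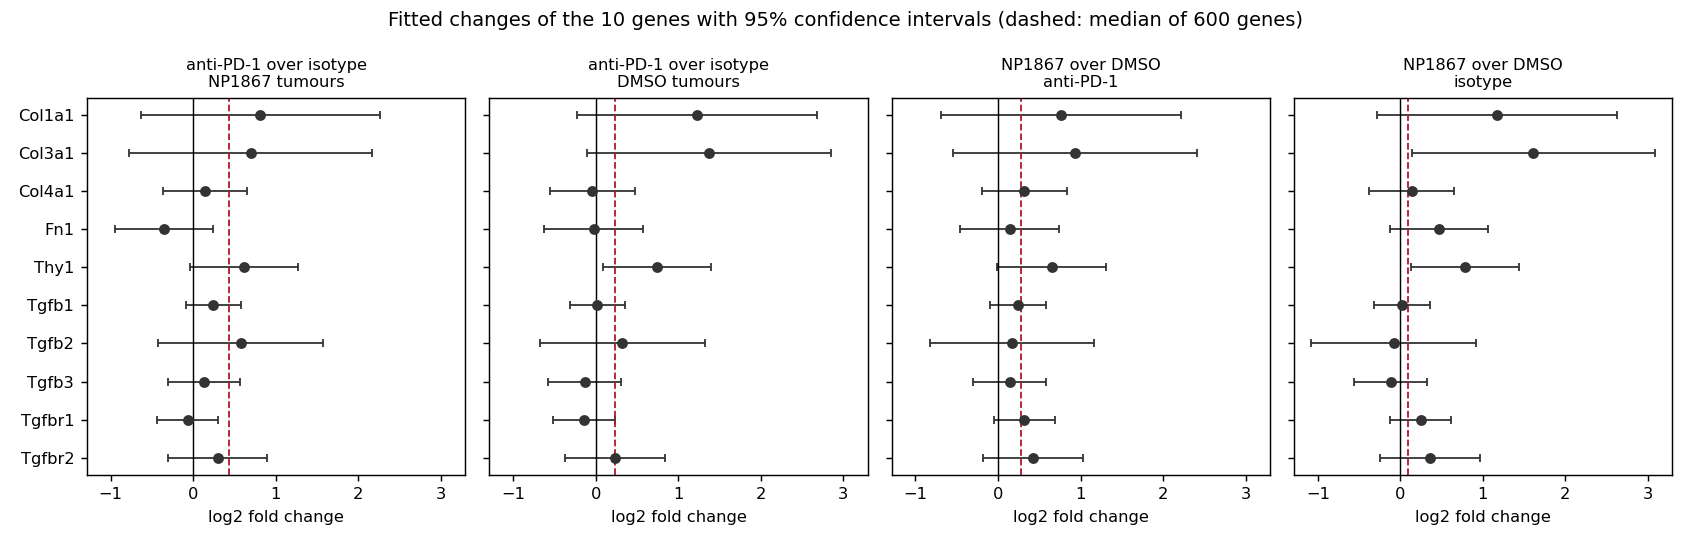
Fitted log2 fold changes (x axis) of the 10 genes (rows) in the 4 simple comparisons, with 95% confidence intervals from limma; the solid line marks 0 and the dashed line the median of the 600 tested genes. The intervals of Thy1 in DMSO tumours and of Thy1 and Col3a1 under isotype exclude 0 before adjustment, and the widest are those of Col1a1 and Col3a1, with a Col3a1 value of 1.61 for NP1867 over DMSO under isotype.

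Counted over the comparisons, limma called 0 of the 10 genes when NP1867 tumours with anti-PD-1 were set against those with isotype, where it called 12.3% of all tested genes; 0 had an unadjusted p under 0.05, and limma-voom called 2. In DMSO tumours it called 0 of 10 (0% of all tested genes), with 1 at an unadjusted p under 0.05 and 0 by limma-voom. For NP1867 against DMSO it called 0 of 10 under isotype (0.167% of all) and 0 of 10 under anti-PD-1 (0% of all), with 2 and 0 at an unadjusted p under 0.05 and 0 by limma-voom in each. In NP1867 against DMSO averaged over both antibodies it called 0 of 10 (2% of all), with 3 at an unadjusted p under 0.05 (Thy1, Col3a1 and Tgfbr1) and 1, Thy1, by limma-voom. All 10 fitted values were positive in that average, as were 78.3% of all tested genes. The difference between the 2 cultures in their response to anti-PD-1 was called for 0 of 10 genes (0% of all), with 0 at an unadjusted p under 0.05 and 0 by limma-voom. For Col1a1 it was -0.41 (95% interval -2.47 to 1.64) and for Tgfb1 0.22 (95% interval -0.26 to 0.70), each with an adjusted p of 0.995. In the 4 simple comparisons the groups overlapped for all 10 genes, and the share of all tested genes with groups apart was 4.17% for the antibody in NP1867 tumours, 0.5% for it in DMSO tumours, 0.333% between the cultures under isotype and 1.33% between them under anti-PD-1.

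The median of the 600 genes was itself above 0 in every comparison, at 0.43 for anti-PD-1 in NP1867 tumours, 0.23 in DMSO tumours and 0.33 averaged over both. Whether the scaling factors or the tissue raised this median was not tested, and values relative to it carry that limit. Centring each tumour on its median changed the split of all calls in the averaged comparison to 54 higher and 95 lower, against 162 higher and 14 lower on the deposited scale. Relative to the median, Tgfbr1 was lower with anti-PD-1 (-0.40, SE 0.11, adjusted p = 0.0111), the 1 gene of the 10 called on that scale, where 24.8% of tested genes were called. The deposited-scale value for Tgfbr1 was -0.11 (adjusted p = 0.507). It was also called after quantile normalisation (-0.33, adjusted p = 0.0227) and with limma-voom (-0.44, adjusted p = 0.00572), and its sign was negative in all 35 settings. Fn1 had -0.48 relative to the median (adjusted p = 0.0516), against -0.19 on the deposited scale. Tgfb1 had -0.16 relative to the median and 0.13 on the deposited scale, and the sign of Col4a1 and Tgfbr2 turned in the same way, none of them called on either scale. Col1a1 and Col3a1 kept positive values of 0.73 and 0.74 after centring, against 1.02 (adjusted p = 0.113) and 1.03 (adjusted p = 0.113) before it. They were called on the deposited scale without NP1867 isotype tumour 47 (1.24, adjusted p = 0.0400, and 1.26, adjusted p = 0.0386), and were 0.05 and 0.08 with Ptprc as a covariate (adjusted p = 0.919 and 0.887).

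From tumour to tumour within a group, Col3a1 and Col1a1 had SDs of 1.35 and 1.33 on the log2 scale, ranks 3 and 4 of the 600 tested genes, whose median was 0.49. Tgfb2 followed at 0.88, with few counts behind it, and Thy1 (0.59), Tgfbr2 (0.53) and Fn1 (0.52) lay near the median. Tgfb1 had 0.27 on the deposited scale, and after each tumour was centred on its median its SD of 0.15 was the smallest of all 600. The share of variance that lay between the 4 groups was 45.9% for Thy1, 31.4% for Col3a1 and 25.3% for Col1a1, against a median of 26.3% over tested genes, and 3.85% for Tgfb3.

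**Figure D3:**
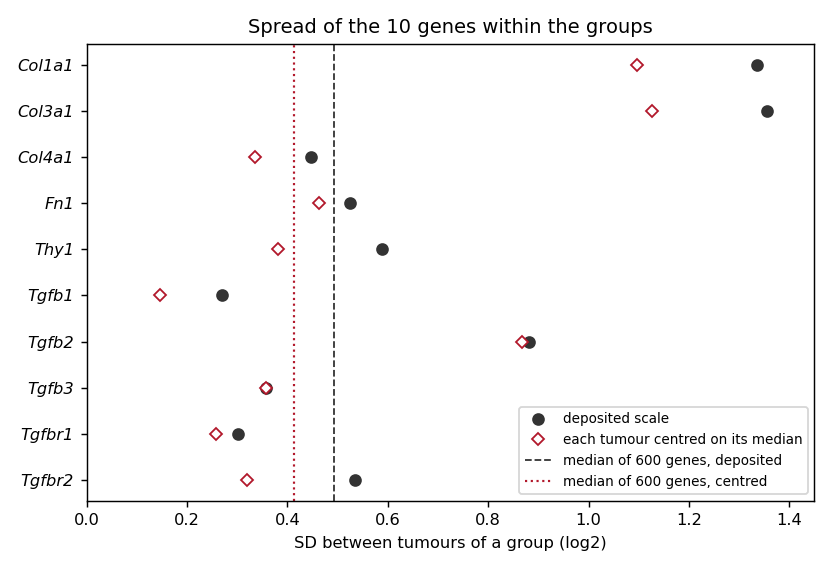
SD of log2 values between tumours of a group (x axis, pooled over the 4 groups of 6) for the 10 genes (rows), on the deposited scale (circles) and with each tumour centred on its median (diamonds); lines mark the medians of the 600 tested genes. Col1a1 and Col3a1 exceed 1 on both scales, and Tgfb1 falls to 0.15 after centring.

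Most of the 10 genes varied together across tumours on the deposited scale. Deviations from the group means were correlated for the 45 pairs, with permutation tests of tumours within groups and adjustment over the 45. On the deposited scale 34 pairs correlated, all positively, by Pearson's r and 31 by Spearman's rho; after centring 9 pairs did, all 9 of them among the 34. Genes of 1 tumour share its scaling factor and its depth, and what these add to r on the deposited scale was not tested. As deviations from the group means, r with the tumour median ran from 0.198 (Tgfb2) to 0.942 (Col1a1) over the 10 genes. With the log2 total count r ran from -0.565 (Tgfb2) to 0.35 (Tgfbr1), and was 0.027 for Col1a1. Col1a1 and Col3a1 were nearly collinear (r = 0.987, rho = 0.982, adjusted permutation p = 4.091e-05 and 5e-05, the smallest that 100000 permutations give after adjustment; r = 0.983 without the 2 tumours farthest out; n = 24), and they remained so after centring (r = 0.980).

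Thy1 and Tgfbr2 followed the collagens. Thy1 had r = 0.904 with Col1a1 (rho = 0.931, adjusted permutation p = 4.091e-05 and 5e-05, 0.871 without the 2 tumours farthest out) and 0.766 after centring. Tgfbr2 had r = 0.895 with Col1a1 (rho = 0.897, adjusted permutation p = 4.091e-05 and 5e-05, 0.867 without the 2 tumours farthest out) and 0.734 after centring. Only Col3a1, Thy1 and Tgfbr2 stayed correlated with Col1a1 past the threshold after centring. Tgfbr1 (r = 0.676 before, -0.101 after), Tgfb3 (0.492, -0.138) and Col4a1 (0.71, 0.25) lost that relation, as did Fn1 and Tgfb1. Tgfb1 stayed correlated with Col4a1 (r = 0.809 before, 0.576 after, adjusted permutation p = 0.0114 after). Its r of 0.778 with Col1a1 (rho = 0.736, adjusted permutation p = 4.091e-05 and 0.000139, 0.673 without the 2 tumours farthest out) became -0.214 after centring (adjusted permutation p = 0.612), and that with Tgfbr2 changed to 0.225, against 0.886 before (rho = 0.826, adjusted permutation p = 4.091e-05 and 5e-05, 0.836 without the 2 tumours farthest out). Fn1 followed Col4a1 (r = 0.742, rho = 0.741, adjusted permutation p = 0.000768 and 0.000928, 0.708 without the 2 tumours farthest out; 0.645 after centring) more than Col1a1 (r = 0.505, rho = 0.509, adjusted permutation p = 0.0270 and 0.0231, 0.404 without the 2 tumours farthest out; 0.0678 after centring). The difference between these r values was not tested. Tgfb2 correlated with none of the other 9 genes past the threshold.

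**Figure D4:**
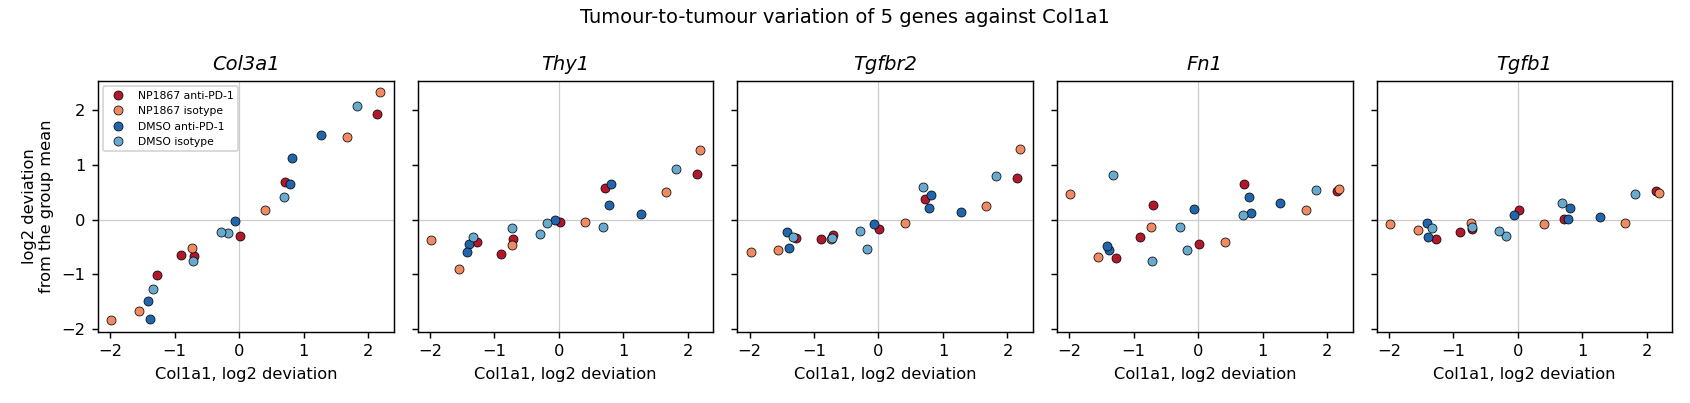
Log2 deviations from the group mean of Col3a1, Thy1, Tgfbr2, Fn1 and Tgfb1 (y axes) against that of Col1a1 (x axes) on the deposited scale; each point is 1 of 24 tumours, coloured by group. Col3a1 lies on a line (r = 0.987), Thy1 and Tgfbr2 rise with a shallower slope, and Tgfb1 (r = 0.778) and Fn1 (r = 0.505) span smaller ranges.

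Outside the 10 genes, the tested genes most like each were found by the Pearson r of the deviations over the 24 tumours on the deposited scale, a description without a test. For Col3a1 these were Il13ra1 (0.947), a chain of the interleukin 13 receptor, Colec12 (0.934), a scavenger receptor, and Il6st (0.917), the shared signal chain of interleukin 6 family receptors. For Col1a1 they were Il13ra1 (0.939), the chemokine gene Cxcl12 (0.922) and the complement inhibitor gene Serping1 (0.921). Tgfbr2 was nearest to Serping1 (0.953), Cxcl12 (0.945) and the complement gene C4b (0.938). Thy1 was nearest to the complement protease gene C1ra (0.946), Il6st (0.931) and Stat3 (0.928). Tgfb1 was nearest to Syk (0.908), a kinase of leukocyte receptors, and to the macrophage genes Cd68 (0.897) and Lyz2 (0.894). Col4a1 was nearest to Apoe (0.874), the endothelial cadherin gene Cdh5 (0.833) and Csf1r (0.821), the macrophage growth factor receptor, and Fn1 to Cd14 (0.825), Cd81 (0.789) and Cd63 (0.785). Tgfbr1 was nearest to Lrp1 (0.807), Il1r1 (0.801) and Mcam (0.781), Tgfb3 to Il1r1 (0.706), Thbs1 (0.688) and Jam3 (0.661), and Tgfb2 to Cd28 (0.860), Egr2 (0.846) and Cr2 (0.836). The values for Tgfb2 rest on 5 to 60 counts per tumour, and rho was 0.858, 0.739 and 0.717. Tgfb2 also fell with the log2 total count (r = -0.565), and the part of depth in its likenesses was not tested. After centring, the nearest 3 of Col1a1 were the same genes, and Cdh5 and Apoe stayed among those of Col4a1, C1ra and Il6st among those of Thy1, and Serping1 and C4b among those of Tgfbr2. The lists of Tgfb1 and Tgfbr1 shared no gene between the scales: after centring Tgfb1 was nearest to Map3k1 (0.718), Cd33 (0.669) and Clec5a (0.664), and Tgfbr1 to Cd81 (0.676), Ifngr1 (0.671) and Runx1 (0.654). Tgfb3 kept only Il1r1 (0.587), beside Ep300 (0.594) and Hif1a (0.585).

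Of 32 further genes of the TGF-beta pathway, 8 were in the table and all 8 were tested. In the 4 simple comparisons none was called by limma. In NP1867 tumours the lowest p for the antibody were those of Eng, an endothelial co-receptor for TGF-beta (0.79, SE 0.29, adjusted p = 0.0695), and Smad3, a transcription factor phosphorylated by the type I receptor (-0.43, SE 0.16, adjusted p = 0.0718). Averaged over both cultures, 2 of the 8 rose with anti-PD-1 and 1 fell, where 29.3% of all tested genes were called, with a median of 0.16 over the 8 genes against 0.33 over all tested genes. Smad3 averaged 7.89 ± 0.19 in NP1867 anti-PD-1 tumours and 8.32 ± 0.27 in NP1867 isotype tumours, and 7.89 ± 0.37 in DMSO anti-PD-1 tumours and 8.28 ± 0.16 in DMSO isotype tumours (SD, n = 6 per group). Its averaged log2 fold change was -0.41 (SE 0.11, adjusted p = 0.0159), and it lost its call in 1 of 35 settings, with Ptprc as a covariate (-0.32, adjusted p = 0.0650). Relative to the tumour median it was lower still (-0.71, adjusted p = 0.00249), and on that scale Smad4, the shared partner of the receptor-activated Smads (-0.51, adjusted p = 0.0104), and Tab1, an adaptor of the TAK1 kinase (-0.62, adjusted p = 0.00242), were called lower as well. On that scale 24.8% of all tested genes were called, 54 higher and 95 lower. Neither Smad4 nor Tab1 was called on the deposited scale.

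Eng rose by 0.63 (SE 0.21, adjusted p = 0.0302) and Thbs1, whose product thrombospondin can release latent TGF-beta, by 0.68 (SE 0.24, adjusted p = 0.0389) in the averaged comparison. These were not called after centring (Eng 0.33, adjusted p = 0.0740; Thbs1 0.39, adjusted p = 0.119), and they lost the call in 10 and 18 of 35 settings.

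**Figure D5:**
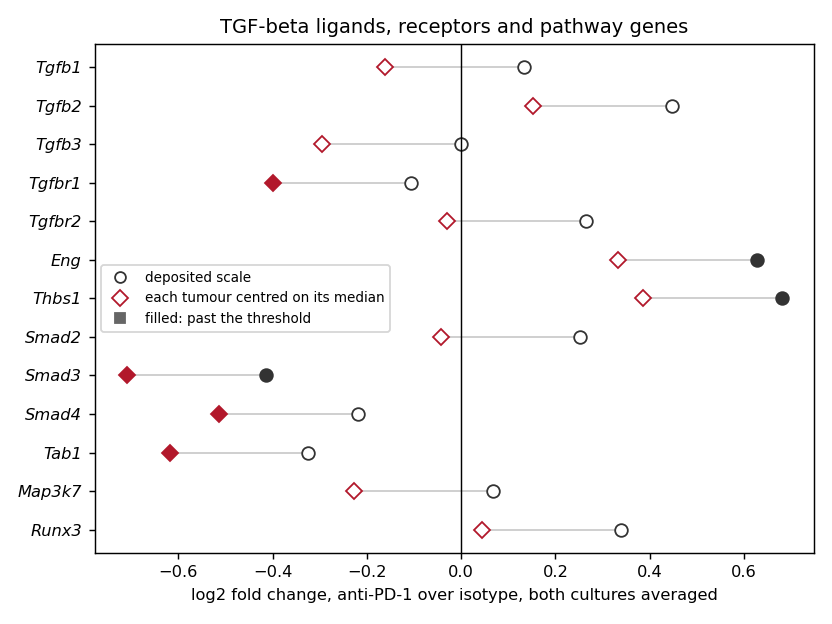
Log2 fold change of anti-PD-1 over isotype averaged over both cultures (x axis) for the ligands, the receptors and the 8 tested pathway genes (rows), on the deposited scale (circles) and with each tumour centred on its median (diamonds); filled symbols passed the threshold. Smad3 is past it on both scales, at -0.41 and -0.71, and Tgfbr1 only after centring.

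Of 35 other matrix, mesenchymal and matrix-remodelling genes, 17 were in the table and tested. In NP1867 tumours 1 rose with anti-PD-1, Ctss, which encodes the protease cathepsin S of antigen-presenting cells (11.65 ± 0.59 with anti-PD-1 and 10.66 ± 0.47 with isotype; 0.99, SE 0.27, adjusted p = 0.0221). Its call was lost in 5 of 24 settings: without NP1867 anti-PD-1 tumours 78 (0.81, adjusted p = 0.0787) or 45 (0.93, adjusted p = 0.0608) or isotype tumour 57 (0.85, adjusted p = 0.0702), with Ptprc as a covariate (0.63, adjusted p = 0.104) and with limma-voom (0.58, adjusted p = 0.0553). Averaged over both cultures 5 of the 17 rose and 0 fell, a share close to the 29.3% of all tested genes called, with a median of 0.15 over the 17 and 0.33 over all tested genes. These were Cxcl12 (1.34, adjusted p = 0.0302), Serping1 (1.30, adjusted p = 0.0273), Fap, a protease of activated fibroblasts (0.93, adjusted p = 0.0437), Ctss (0.81, adjusted p = 0.00641) and Eng. Ctss, Cxcl12 and Serping1 were also called after centring, and Fap was not (0.64, adjusted p = 0.0733). With Ptprc as a covariate Cxcl12 was 0.44 (adjusted p = 0.175), Serping1 0.55 (adjusted p = 0.195) and Fap 0.35 (adjusted p = 0.354). Of 35 settings, Cxcl12 lost its call in 7, Serping1 in 4 and Fap in 18.

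Among receptors of collagen and fibronectin receptors, 10 of 17 were in the table and 8 were tested. Cd47, a receptor for thrombospondin that signals to phagocytes, rose with anti-PD-1 averaged over both cultures (0.37, SE 0.13, adjusted p = 0.0382), where 29.3% of all tested genes were called. Relative to the tumour median it was not called (0.07, adjusted p = 0.806). Its call was lost in 12 of 35 settings, among them limma-voom (0.07, adjusted p = 0.819) and leaving out the 4 tumours under 200000 counts (0.20, adjusted p = 0.120). Itgb3, the beta chain of the vitronectin and fibrinogen receptors, rose in NP1867 against DMSO tumours averaged over both antibodies. It averaged 6.67 ± 0.61 in NP1867 anti-PD-1 tumours and 5.57 ± 0.42 in DMSO anti-PD-1 tumours, and 6.32 ± 0.68 in NP1867 isotype tumours and 5.60 ± 0.36 in DMSO isotype tumours (0.91, SE 0.21, adjusted p = 0.0209; 0.71 after centring, adjusted p = 0.0203). Its call was lost in 5 of 35 settings. It was lost with the log2 total count as a covariate (0.90, adjusted p = 0.0539). Leaving out the 4 tumours under 200000 counts, all of them DMSO tumours, also removed it (0.89, adjusted p = 0.0534). The other losses were without NP1867 anti-PD-1 tumour 45 (0.87, adjusted p = 0.0509), DMSO anti-PD-1 tumour 11 (0.84, adjusted p = 0.0505) or DMSO isotype tumour 59 (0.86, adjusted p = 0.0510).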

How the data were processed

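RNA of 24 tumours was counted with a NanoString nCounter mouse immune panel from 3 sections of 10 um and 100 ng of RNA each, per the labels' protocols. The authors deposited log2 values of 750 genes; the normalisation is not given in the sources used here. Every value was a whole count times 1 factor per tumour (0.522 to 5.457; 100% whole within 0.05), so the counts could be recovered. The 600 genes whose mean reached log2 of 20 were tested. A model of the 4 groups with a mean trend was fitted in limma 3.58.1 under R 4.3.3 (20 residual degrees of freedom). P values are two-sided, with Benjamini-Hochberg adjustment over all tested genes and a threshold of 0.05. The fit was tested on simulated data. Correlations used 100000 permutations of tumours within groups. The 10 genes, the gene lists and the rule for named genes (all 10; list genes past the threshold or, failing that, the 2 with the lowest p; the 3 most like genes) were chosen with earlier results of these data known. p-values cover the spread between tumours picked near the mean volume. Sequences are from RefSeq, build GRCm38.p6.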

Additional observations from a re-analysis of the deposited data

Results flagged for a closer look

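Within the 40 combinations of gene and group, 4 held 1 tumour that stood apart from the other 5 by more than Dixon's 95% critical value for 6 samples; chance flags about 5% of such groups. Thy1 was 9.02 in DMSO isotype tumour 6 (127 counts), with the next tumour at 8.04. Tgfb1 was 9.68 in NP1867 isotype tumour 47 (720 counts), with the next at 9.13. Tgfb2 was 7.36 in DMSO isotype tumour 23 on 30 counts, with the next at 4.35. Tgfb3 was 6.84 in DMSO anti-PD-1 tumour 13 (158 counts), with the next at 6.28.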

How the results depend on the processing

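For the 70 combinations of gene and comparison, 2003 values were computed under alternative settings. Of these 1799 kept their sign and their side of the threshold, 26 gained a call, 9 lost it (all of them Thy1 in anti-PD-1 against isotype averaged over both cultures), and 169 changed sign with no call in either setting; 0 changed sign with a call. The count of the 10 genes called for anti-PD-1 in NP1867 tumours was 0, but 1 with quantile normalisation, 1 with array weights, 2 with limma-voom and 0 to 1 on leaving out each tumour. In DMSO tumours it was 0, but 4 with array weights. Averaged over both cultures it was 1, but 3 with quantile normalisation, 5 with array weights, 0 with Ptprc as a covariate, 3 with limma-voom, 5 without the 4 tumours under 200000 counts, and 0 to 3 on leaving out each tumour. For NP1867 against DMSO averaged over both antibodies it was 0, but 1 with limma-voom. The 34 correlated pairs became 9 after centring and 10 after quantile normalisation. Over all 600 genes, calls for anti-PD-1 in NP1867 tumours numbered 74, against 14 with Ptprc as a covariate, 267 with array weights and 14 to 198 on leaving out each tumour. They numbered 130 with the log2 total as a covariate and 139 without the 4 shallow tumours. In the averaged comparison there were 176, against 53, 404 and 91 to 308 under the first 3 alternatives and 318 without the shallow tumours. With array weights the count was 273 for anti-PD-1 in DMSO tumours (0 on the deposited scale, 1 after centring), 13 for NP1867 against DMSO under isotype (1 without them) and 70 averaged over both antibodies (12 without them, 6 with the log2 total and 6 to 26 on leaving out each tumour). The cause of these changes was not tested. No paired analysis was made, because the labels name no pairs of tumours between groups. Depth limits Tgfb2 most, at 5 to 60 counts per tumour.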

Other observations

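The log2 ratio of Col3a1 to Col1a1 within a tumour does not depend on the tumour's scaling factor. It was compared after the values had been seen, together with the other 44 ratios between the 10 genes in the 4 simple comparisons, 180 exact permutation tests in all. Under isotype it averaged 0.93 ± 0.19 in NP1867 tumours (range 0.70 to 1.15) and 0.49 ± 0.18 in DMSO tumours (range 0.21 to 0.75; SD, n = 6 each), a difference of 0.44 (two-sided exact permutation p = 0.00433, adjusted p = 0.195). The ranges met only between NP1867 tumour 74 and DMSO tumour 6. Under anti-PD-1 the same ratio averaged 0.81 ± 0.23 in NP1867 tumours and 0.63 ± 0.28 in DMSO tumours (difference 0.18, exact permutation p = 0.260). Of the 180 tests, 26 had an unadjusted p under 0.05 and 0 passed after adjustment; the smallest p such a test can give is 0.00216. An exact permutation p of 0.00433 was also found for Tgfb2 over Fn1 with anti-PD-1 in NP1867 tumours. It was found as well for Tgfbr1 over Thy1 with anti-PD-1 in DMSO tumours.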
